A study of Homo sapiens with 12 samples.

Results

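LKB1-deficient and LKB1-intact cells were compared at baseline, pretreated with phosphate-buffered saline (PBS) and no ascorbate. The comparison uses 6 of the 12 RNA sequencing libraries of the study, namely 3 libraries of deficient and 3 of intact cells. Titles and labels, and no measured value, decided which libraries entered. Every library is labelled A549, an established human lung adenocarcinoma line. Cells titled con carry the genotype label LKB1-deficient, and those titled WT, labelled wild type, are called intact here. The other 6 libraries, 3 of each genotype, received AA, which the titles call vitamin C, and serve below as libraries that did not enter the baseline comparison. No dose, exposure time, clone number or way of making either genotype is given in the labels, and A549 itself is widely described as lacking functional LKB1. The labels leave it unsaid if the 3 libraries of a group are separate cultures; p-values therefore rest on the spread among these libraries, which may be technical.

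LKB1, the product of STK11, is a serine/threonine kinase that works in a complex with the pseudokinase STRAD and the scaffold protein MO25. It phosphorylates and activates AMPK, the sensor of cellular energy, and a set of AMPK-related kinases (SIK, MARK, NUAK and BRSK). Through these kinases it acts on metabolism, cell polarity, attachment and the cytoskeleton, and STK11 is a tumour suppressor gene that is often mutated in lung adenocarcinoma. Because the kinases act on proteins first, an RNA comparison reads only the transcripts that differ between the genotypes.

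Library totals ran from 16055534 to 18739302 estimated counts, with composition (TMM) factors from 0.987 to 0.996 and mitochondrial transcripts at 5.07 to 5.36% of counts. Replicate libraries of intact cells differed from each other by a chi-square per degree of freedom of 2.01 to 2.34, and those of deficient cells by 3.19 to 3.96, against 2.58 to 4.51 between genotypes. A value of 1 would be counting noise alone, so the difference between genotypes was of the size of the difference between deficient libraries. The A549 label was checked against marker genes, which were mixed in both genotypes. The surfactant genes SFTPA1, SFTPA2 and SFTPD and the alveolar markers NAPSA and SLC34A2 had no count in any of the 6 libraries, ALDH1A1 reached at most 1 count, and 11 of 20 lung epithelial and A549 markers stayed under 1 CPM (counts scaled to a common library size). CDKN2A, a gene chosen after its values were seen and widely described as deleted in A549, was listed at 60.5 to 78.7 FPKM (fragments scaled by gene length and library depth). KRT8, KRT18 and KRT7, keratins of simple epithelia, were abundant, at 677 to 816, 484 to 543 and 342 to 392 FPKM. The lung epithelial markers ABCA3, MUC1 and MUC5AC were also present, at 26.4 to 28.9, 35.8 to 44.0 and 7.83 to 8.60 FPKM. Of the same list, AKR1B10, CDH1, KRT19 and NKX2-1 reached at most 0.808, 0.499, 0.381 and 0.031 FPKM. Of 6 kidney line markers, 4 stayed under 1 CPM, while PAX8 and LHX1 were at 3.63 to 6.41 and 1.14 to 2.35 FPKM. The other genes chosen after their values were seen were present, among them AKR1C3 (104 to 122 FPKM), NQO1 (178 to 204), CPS1 (121 to 129), L1CAM (162 to 173) and VIM (326 to 363). The cells are called by their genotype below.

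STK11 separated the genotypes in every library. Its level, in TMM-scaled CPM, was 25.4, 24.6 and 23.6 in the 3 intact libraries and 5.94, 6.56 and 4.86 in the 3 deficient ones. All 3 deficient libraries lay far below the lowest intact library. The change was -2.08 on the log2 scale (SE 0.11, edgeR quasi-likelihood test, adjusted p = 1.48e-10), a 4.23-fold lower level. Summed counts in deficient cells were 23.6% of those in intact cells (95% exact interval 20.7 to 26.9%, for counting error only), so STK11 RNA was reduced and not absent. STK11 lies at chr19:1177558-1228435 on the plus strand (GENCODE release 29, GRCh38). None of the 10 tested genes within 100 kb of it was called, against 0.275% of all tested genes, so this count says little about the region. The closest were CBARP, which overlaps it (log2 change -0.07, edgeR adjusted p = 0.914), and SBNO2 (-0.05, adjusted p = 0.809). In bulk RNA, fewer cells with a transcript and less of it per cell cannot be told apart.

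The baseline difference beyond STK11 was small. Of 12718 tested genes, 35 were called at an adjusted p under 0.05 (0.275% of tested genes), 28 lower (0.22%) and 7 higher (0.055%) in deficient cells. The median absolute log2 change over all tested genes was 0.0606, below the median standard error of 0.0712, and 90% of genes had an absolute log2 change under 0.268. A log2 change of 1 or more was reached by 6 called genes, all of them lower in deficient cells, and the other 29 changed by less. The median absolute log2 change of the called genes was 0.341 and the smallest was 0.134. At an unadjusted p under 0.05 there were 1075 genes (8.45%), 591 lower (4.65%) and 484 higher (3.81%). The groups' libraries did not overlap for 34 of the 35 called genes, against 13.4% of all tested genes. Calls and overlap come from the same libraries, so this count describes the calls and is no further evidence for them.

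**Figure D1:**
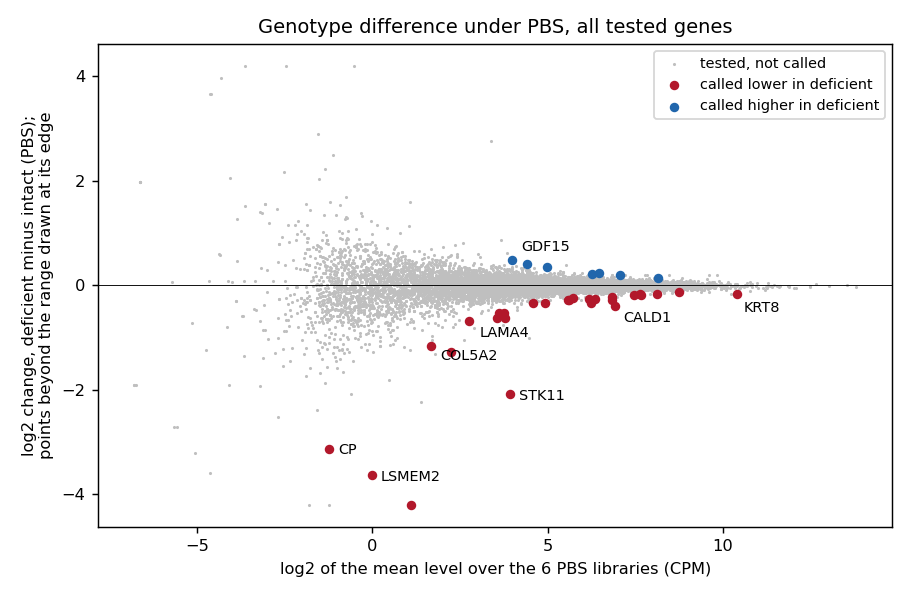
Log2 change between genotypes under PBS (deficient minus intact) against the log2 mean CPM over the 6 PBS libraries, with 1 point per tested gene, called genes coloured by direction, and points beyond the range drawn at its edge. Nearly all of the 12718 genes lie close to 0, while 28 called genes lie below and 7 above. STK11, at -2.08, lies lowest among the called genes of its level.

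The set of called genes depended on single libraries. When 1 of the 6 libraries was left out, between 6 and 28 genes were called: 6 without intact replicate 2 or without deficient replicate 1, 9 without intact replicate 1, 14 without deficient replicate 3, 15 without intact replicate 3 and 28 without deficient replicate 2. STK11, LSMEM2, CALD1 and SCIN were called in all 6 of these fits, IGFBP3 in 5, and MYO5A and PEG10 in 4. The 9 genes called in none of them were CP, COL5A2, F2RL2, FN1, ZNF469, HERC4, HKDC1, ANXA3 and PDZD2. No called gene changed sign under any alternative in which it was measured.

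**Figure D2:**
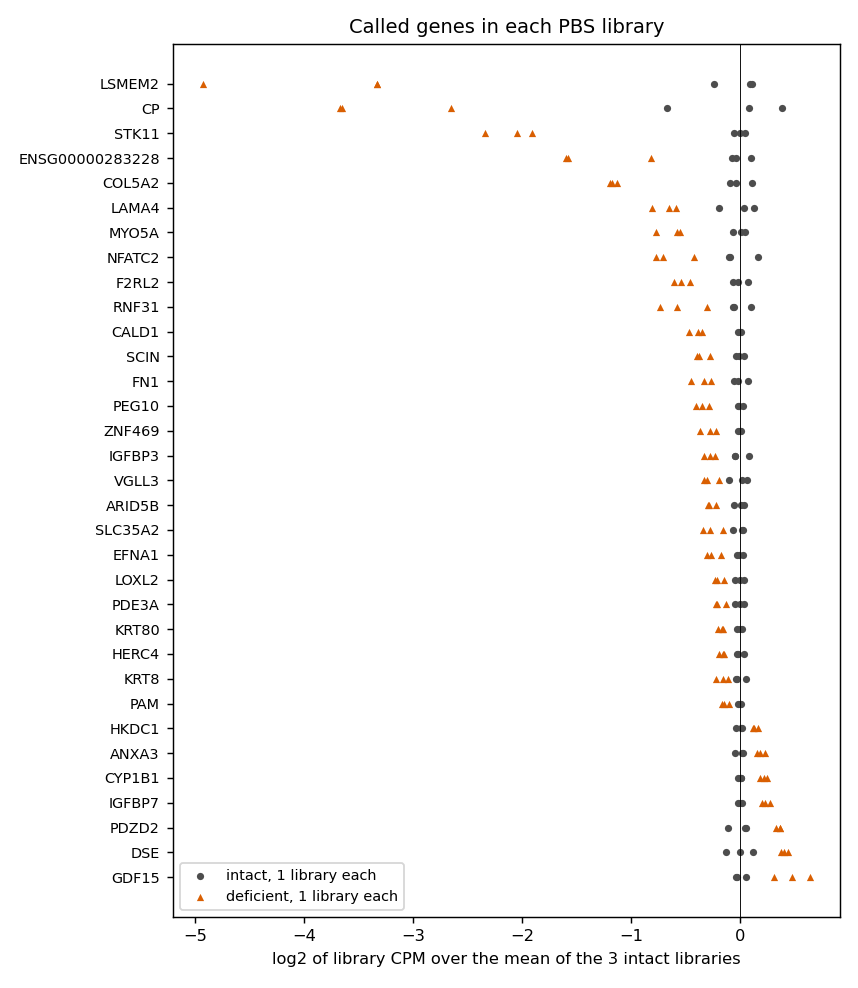
Level of 33 called genes in each PBS library, as log2 of its CPM over the mean of the 3 intact libraries; grey circles are intact and orange triangles deficient libraries. The libraries of the genotypes do not overlap for any of the 33 genes drawn, and for most of them the shift is well under 1 on the log2 scale. ENSG00000267303, the called gene whose libraries overlap, was among those left out of the drawing.

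Genes of the extracellular matrix were mostly a little lower in deficient cells, and 7 of them were called. The matrix is the network of collagens, glycoproteins and proteoglycans that cells secrete and attach to, together with the enzymes that crosslink and degrade it. In 5 lists that together hold 166 matrix genes, 122 were tested, of which 6 were called lower and 1 higher, against 0.22% and 0.055% of all tested genes, and 94 (77.0%) had a negative log2 change. Their median log2 change was -0.071, against 0.000 over all tested genes, of which 49.9% were negative, and it was -0.065 without the called genes. The libraries of the groups did not overlap for 28 of the 122 genes in the lower and 3 in the higher direction, against 7.12% and 6.33% of all tested genes. The lists were chosen with earlier results of these data known, so these counts are a description. Markers of fibroblasts, another source of matrix, were at or near 0 with the exception of COL1A1: 9 of 10 were under 1 CPM in all 6 libraries, COL1A2, PDGFRA and THY1 had no count, and the 10 summed to 12.5 to 14.5 CPM in intact and 12.3 to 13.3 CPM in deficient libraries.

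Among structural matrix genes, COL5A2, LAMA4 and FN1 were lower in deficient cells. COL5A2 (chr2:189031896-189225312) encodes a chain of type V collagen, which sets the width of collagen fibrils. It stood at 4.78, 4.16 and 4.32 CPM in intact and 1.96, 1.94 and 2.03 CPM in deficient libraries. This was the largest difference of a matrix gene that was called, a 2.23-fold lower level (log2 change -1.16, SE 0.22, edgeR adjusted p = 0.0191), in a gene of low level at 0.756 and 0.358 FPKM. Its partner chain COL5A1 stood at 385 ± 10.1 CPM in intact and 357 ± 17.0 CPM in deficient cells (mean ± SD, n = 3) and was not called (edgeR adjusted p = 0.369).

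LAMA4 (chr6:112108760-112254939) encodes a laminin chain of basement membranes. Intact libraries had 9.19, 8.60 and 7.36 CPM and deficient ones 5.58, 5.34 and 4.80 CPM, with no overlap, a 1.60-fold lower level (log2 change -0.67, SE 0.12, edgeR adjusted p = 0.0191). FN1 (chr2:215360440-215436172), the gene of fibronectin, which binds integrins and assembles into fibrils on the cell surface, had 25.8, 28.2 and 26.5 CPM in intact and 19.7, 21.4 and 22.4 CPM in deficient libraries. It was 1.27-fold lower (log2 change -0.34, SE 0.07, edgeR adjusted p = 0.0449), close to the threshold, and the groups again did not overlap. COL5A2 and FN1 were not called when any 1 library was left out, and LAMA4 was called in 2 of those 6 fits. When edgeR was fitted to the 6 PBS libraries alone, COL5A2 was called (adjusted p = 0.0204). LAMA4 and FN1 were not called in that fit (edgeR adjusted p = 0.0529 and 0.0615). On log2 FPKM limma called neither LAMA4 nor FN1. With a pseudocount of 1, which shrinks low genes, it gave -0.36 and -0.22 (adjusted p = 0.589 and 0.531). With a pseudocount of 0.1 it gave -0.50 and -0.28 (adjusted p = 0.58 and 0.539), still smaller changes than in the count fit. ZNF469, which encodes a zinc-finger protein whose loss causes brittle cornea syndrome, a disorder of collagen-rich tissue, was in none of the lists. It stood at 54.2 ± 0.470 CPM in intact and 44.5 ± 2.28 CPM in deficient cells (SD, n = 3; edgeR adjusted p = 0.0398).

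Other collagens and laminins stayed short of the threshold. HSPG2, the proteoglycan perlecan of basement membranes, came closest, at 141.4, 146.1 and 144.7 CPM in intact and 131.8, 127.9 and 121.5 CPM in deficient libraries (log2 change -0.18, edgeR adjusted p = 0.0568). FBN2, a fibrillin of microfibrils, had a log2 change of -0.14 (adjusted p = 0.183), LAMB2 of -0.29 (adjusted p = 0.160) and LAMB3 of -0.12 (adjusted p = 0.289). MFAP5, a microfibril protein, pointed the other way, at 49.5 ± 1.94 CPM in intact and 58.2 ± 2.41 CPM in deficient cells (SD, n = 3; edgeR adjusted p = 0.0622). COL4A1 and COL4A2, the main chains of basement membrane collagen, had log2 changes of -0.10 and -0.09 with overlapping libraries (adjusted p = 0.473 and 0.551), and COL1A1 of 0.02 (adjusted p = 0.967).

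Secreted factors of the matrix moved in both directions. IGFBP3 (chr7:45912245-45921874) and IGFBP7 (chr4:57030773-57110385) encode secreted binding proteins of the insulin-like growth factor family. IGFBP3 fell from 122.1, 121.6 and 133.4 CPM in intact to 99.8, 104.0 and 107.2 CPM in deficient libraries, a 1.21-fold lower level (log2 change -0.28, SE 0.04, edgeR adjusted p = 0.00474). IGFBP7 rose from 79.4, 81.6 and 80.5 CPM to 94.7, 97.7 and 92.6 CPM, a 1.18-fold higher level (log2 change 0.24, SE 0.04, edgeR adjusted p = 0.01). Neither gene's groups overlapped. Of the 23 tested matricellular and matrix-associated genes 20 had a negative log2 change, with a median of -0.172, the lowest of the 40 lists. CCN1 and CCN2, which bind integrins, had log2 changes of -0.11 and -0.18 and overlapping libraries (adjusted p = 0.360 and 0.336).

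Among enzymes that act on the matrix, LOXL2 was lower in deficient cells. LOXL2 is a lysyl oxidase that crosslinks collagen, and it had 216.4, 208.9 and 221.3 CPM in intact and 187.0, 195.1 and 184.5 CPM in deficient libraries, a 1.14-fold lower level (log2 change -0.19, SE 0.04, edgeR adjusted p = 0.0191). The difference was small and without overlap between groups. DSE, an epimerase that makes dermatan sulfate in matrix proteoglycans and is in none of the lists, was higher in deficient cells, at 24.2, 24.8 and 23.7 CPM against 18.3, 16.7 and 19.8 CPM in intact ones (log2 change 0.41, SE 0.08, edgeR adjusted p = 0.0295). PLAU, a secreted protease, had a log2 change of -0.39 at 7.90 and 6.03 CPM and was not called (adjusted p = 0.294). None of the 22 tested integrins and matrix receptors was called, against 0.275% of all tested genes, so this count says little about them. Of the 22, 11 were negative, and their median was 0.002. ITGB1, the shared beta chain of many matrix receptors, stood at 968 ± 6.79 and 967 ± 15.3 CPM in intact and deficient cells (SD, n = 3).

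**Figure D3:**
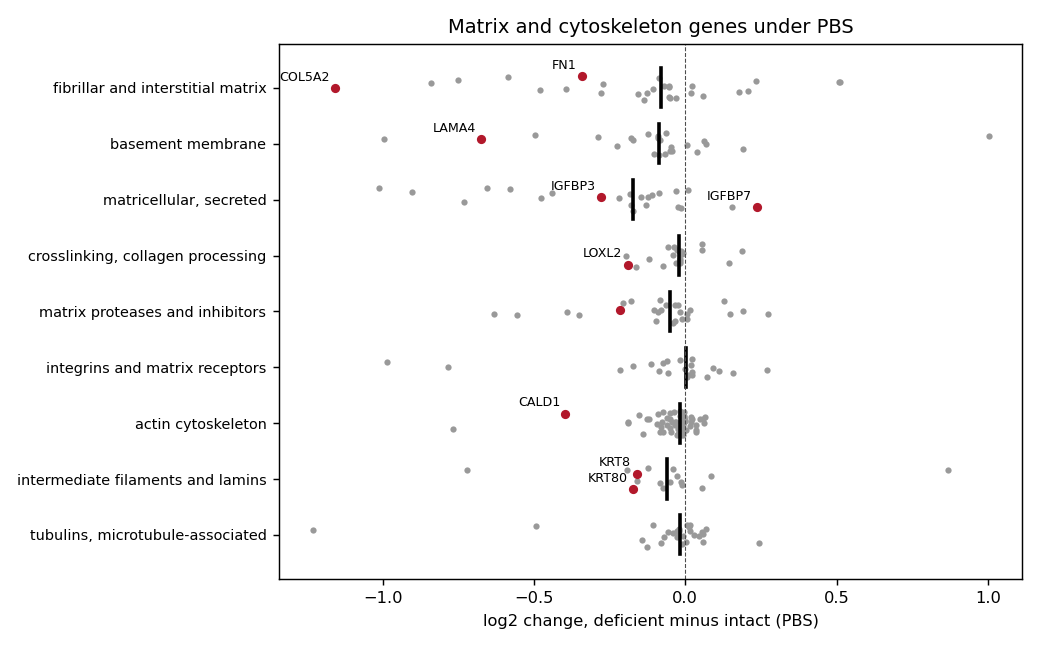
Log2 change between genotypes under PBS (deficient minus intact) of the tested members of 9 gene lists, 1 point per gene, with called genes in red (9 of them named) and the median of each list as a bar. The medians of the 5 matrix lists lie between -0.172 and -0.021, that of integrins and matrix receptors at 0.002, and the 10 called genes lie between COL5A2 at -1.16 and IGFBP7 at 0.24, with uncalled genes on either side.

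In the cytoskeleton, CALD1 and the keratins KRT8 and KRT80 were called lower in deficient cells and no gene was called higher. The 3 cytoskeleton lists hold 118 genes, of which 104 were tested, 3 were called lower, against 0.22% of all tested genes. A negative log2 change was seen in 77 (74.0%, against 49.9% of all tested genes) and the median was -0.022. In the higher direction, libraries did not overlap for 7 members, against 6.33% of all tested genes, and in the lower direction for 16, against 7.12%. As with the matrix lists, the choice was made with earlier results known, so these counts are a description. CALD1 (chr7:134744252-134970728) encodes caldesmon, which binds actin filaments and tropomyosin and restrains myosin. Its level was 137.1, 135.5 and 137.7 CPM in intact and 99.2, 104.8 and 107.8 CPM in deficient libraries. The difference, a 1.32-fold lower level (log2 change -0.40, SE 0.05, edgeR adjusted p = 0.000173), was several times the spread within either group. CALD1 and STK11 were called in all 6 fits that leave out a library and under the 13 other alternatives. FPKM averaged 39.7 and 28.5.

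KRT8, the keratin of simple epithelia that pairs with KRT18, had 1390.5, 1397.1 and 1473.5 CPM in intact and 1275.5, 1314.2 and 1221.0 CPM in deficient libraries, a 1.12-fold lower level (log2 change -0.16, SE 0.03, edgeR adjusted p = 0.0191). KRT80 had 214.6, 208.4 and 211.4 CPM against 189.7, 188.8 and 184.4 CPM, a 1.13-fold lower level (log2 change -0.17, SE 0.03, edgeR adjusted p = 0.0191). Both keratins were among the smallest changes called, in abundant transcripts without overlap between groups. Unlike CALD1, KRT8 and KRT80 were each called in only 1 of the 6 fits that leave out a library. With limma on log2 FPKM and a pseudocount of 1, neither was called (adjusted p = 0.232 and 0.161). KRT18, the partner of KRT8, stood at 769 ± 2.60 and 742 ± 44.2 CPM in intact and deficient cells (SD, n = 3), with overlapping libraries (edgeR adjusted p = 0.706). VIM, the mesenchymal intermediate filament, stood at 660 ± 9.85 and 654 ± 34.5 CPM (adjusted p = 0.937). PLEC, a linker of filaments to adhesion sites, just missed the threshold at 1277.5, 1271.9 and 1268.8 CPM in intact and 1130.0, 1210.8 and 1081.9 CPM in deficient libraries (log2 change -0.16, edgeR adjusted p = 0.0533), and was called under 7 alternatives. LMNA, the lamin of the nuclear envelope, had a log2 change of -0.12 (adjusted p = 0.0798).

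SCIN and MYO5A, which belong to neither the actin list nor any other list, were also lower. SCIN (chr7:12570577-12660179) encodes scinderin, which severs and caps actin filaments, and MYO5A (chr15:52307283-52529050) a myosin that carries vesicles along actin. SCIN had 83.5, 81.7 and 86.2 CPM in intact and 64.8, 63.7 and 69.3 CPM in deficient libraries, a 1.27-fold lower level (log2 change -0.34, SE 0.04, edgeR adjusted p = 0.000555). MYO5A had 16, 17.3 and 16.8 CPM against 9.81, 11.4 and 11.2 CPM, a 1.55-fold lower level (log2 change -0.63, SE 0.11, edgeR adjusted p = 0.0102). In both genes every deficient library lay below every intact one. In the FPKM table the difference of MYO5A was smaller, at means of 2.55 and 2.19 FPKM, and with limma on log2 FPKM it was -0.16 with a pseudocount of 1 and -0.23 with 0.1 and was not called (adjusted p = 0.788 and 0.797). SCIN averaged 28.1 and 22.8 FPKM. The actin, tropomyosin, filamin and tubulin genes named next were not called. ACTB, the main actin gene, stood at 4259 ± 51.8 and 4107 ± 166 CPM in intact and deficient cells (SD, n = 3; edgeR adjusted p = 0.616), and TPM1, FLNA and TUBB had log2 changes of -0.02, -0.03 and 0.00 with overlapping libraries. Of 60 tested genes of the actin list, 48 were negative with a median of -0.018. None of the 28 tested tubulin and microtubule-associated genes was called, against 0.275% of all tested genes, which says little for a list of this size.

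The kinases that LKB1 binds or activates showed no change that passed the test. Besides STK11, 10 genes of the LKB1 complex and AMPK subunits were tested, and their median log2 change without STK11 was 0.009. STRADA and CAB39, the genes of the pseudokinase and of MO25, had log2 changes of 0.00 and 0.01 (adjusted p = 0.996 and 0.943). PRKAA1, the more abundant catalytic subunit of AMPK by FPKM, stood at 283 ± 0.836 CPM in intact and 279 ± 6.02 CPM in deficient cells (SD, n = 3; edgeR adjusted p = 0.888). All 12 AMPK-related kinases were tested and none was called, against 0.275% of all tested genes, so this count says little about them. BRSK2, a kinase of neuronal polarity, was the 1 of the 12 without overlap between groups, against 13.4% of all tested genes. Its level was 3.02, 2.87 and 2.47 CPM in intact and 1.78, 1.76 and 1.66 CPM in deficient libraries (log2 change -0.68, SE 0.22, edgeR adjusted p = 0.305). SIK1 and SIK2 stood at 116 ± 1.53 and 62.1 ± 0.886 CPM in intact cells against 119 ± 9.81 and 62.1 ± 0.949 CPM in deficient cells (SD, n = 3).

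Other genes called lower belong to none of the lists. NFATC2, a calcium-regulated transcription factor, had 13.5, 13.4 and 16.1 CPM in intact and 8.82, 10.7 and 8.42 CPM in deficient libraries (log2 change -0.62, SE 0.12, edgeR adjusted p = 0.0223). F2RL2, a thrombin receptor of the protease-activated family, had 16, 15.5 and 17.0 CPM against 11.8, 11.1 and 10.6 CPM (log2 change -0.53, SE 0.10, adjusted p = 0.0191). RNF31, the catalytic subunit of the linear ubiquitin ligase, stood at 14.4 ± 0.974 and 10.01 ± 1.55 CPM (SD, n = 3; edgeR adjusted p = 0.0247). These 3 genes of modest level fell 1.44-fold to 1.54-fold, with no overlap between groups. On log2 FPKM the change of RNF31 was -0.27 with a pseudocount of 1 and -0.32 with 0.1, and limma did not call it (adjusted p = 0.619 and 0.608). VGLL3, a cofactor of TEAD transcription factors, stood at 52.8 ± 3.08 and 43.8 ± 2.29 CPM (edgeR adjusted p = 0.0321). ARID5B, a chromatin regulator of metabolic genes, stood at 79.8 ± 2.65 and 66.4 ± 1.81 CPM (edgeR adjusted p = 0.0199), and PEG10, an imprinted gene derived from a retrotransposon, at 34.3 ± 0.536 and 27.1 ± 1.11 CPM (edgeR adjusted p = 0.01). SLC35A2, the carrier of UDP-galactose into the Golgi, where matrix and membrane proteins receive their sugars, stood at 88.5 ± 3.02 and 74.3 ± 4.93 CPM (edgeR adjusted p = 0.0235).

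A few called genes fall outside the rule for named genes and are named here after their values were seen. LSMEM2, a gene of a small membrane protein, had 25.2, 36.6 and 35.5 estimated counts in the intact and 3.19, 1.04 and 3.17 in the deficient libraries, so that deficient cells held 7.68% of the intact level (95% exact interval 3.01 to 16.4%). It was called in all 6 fits that leave out a library. CP, the copper-carrying ferroxidase ceruloplasmin, had 13.2, 9.18 and 18.2 estimated counts against 2.02, 1.01 and 1.00, or 10.6% (95% exact interval 2.77 to 29.4%), and rested on few counts. The intervals of LSMEM2 and CP are for counting error only and leave out the spread between libraries. EFNA1, PDE3A, HERC4 and PAM were lower by 1.19-fold, 1.14-fold, 1.12-fold and 1.10-fold, all without overlap. The last pair of calls were identifiers without a symbol of their own. ENSG00000267303 overlaps RAVER1 and had 117, 0 and 101 estimated counts in intact libraries and 0 in all 3 deficient ones, so intact replicate 2 did not differ from the deficient libraries; no fold is given. RAVER1 had a log2 change of -0.03 (adjusted p = 0.926). ENSG00000283228, which overlaps CACNB4, had 114, 118 and 116 against 61.8, 37.0 and 35.6 estimated counts (log2 change -1.28, SE 0.26, edgeR adjusted p = 0.0291). Whether reads of overlapping genes were told apart by strand is not given in the sources used here, so both identifiers are uncertain.

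The 7 genes that rose in deficient cells all rose by less than 1.5-fold. GDF15 (chr19:18374731-18389176), a secreted factor induced by cell stress and counted among p53 targets, had the largest rise, from 13.8, 13.1 and 13.0 CPM in intact to 20.8, 18.5 and 16.5 CPM in deficient libraries, 1.40-fold (log2 change 0.49, SE 0.08, edgeR adjusted p = 0.01). CYP1B1, a cytochrome P450 of steroid and xenobiotic metabolism, had 71.4, 70.2 and 71.6 CPM against 84.3, 80.7 and 82.7 CPM, a 1.16-fold rise (log2 change 0.22, SE 0.04, edgeR adjusted p = 0.0191). The deficient libraries of both genes lay above all intact ones, although those of GDF15 spread more. ANXA3, an annexin that binds membranes with calcium, stood at 126 ± 3.53 and 144 ± 3.58 CPM in intact and deficient cells, HKDC1, a hexokinase-like protein, at 268 ± 5.21 and 295 ± 5.35 CPM, and PDZD2, a scaffold protein, at 27.9 ± 1.73 and 35.7 ± 0.492 CPM (SD, n = 3; edgeR adjusted p = 0.0191, 0.0331 and 0.0449). IGFBP7 and DSE, described above, complete the group.

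Of the 40 lists, 26 had no called gene, and their medians ran from -0.055 to 0.072. With 0.275% of all tested genes called, a list of this size would hold none in most cases, so the absence of calls says little about these pathways. Among them were the AMPK-related kinases, the 22 tested genes of the mTORC1 pathway, the 22 of glycolysis, the 36 nuclear genes of oxidative phosphorylation, the 44 ribosomal proteins, the 16 of pyroptosis, the 27 NRF2 targets and the 32 of the integrated stress response. Targets of CREB and its CRTC coactivators, which SIK kinases hold back, had a median log2 change of 0.072 with 17 of 21 positive and none called. Genes of DNA replication and of the G2 and M phases were positive in 22 of 28 and 24 of 30 cases, with medians of 0.033 and 0.043. On the other side, 24 of 26 YAP-TEAD targets were negative with a median of -0.065, of which IGFBP3 alone was called, and 21 of 23 MRTF-SRF targets with a median of -0.034 and none called. No list was tested as a set.

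Promoter sequences were searched for 4 motifs of factors that act on matrix, cytoskeleton or CREB target genes. The sequences are from RefSeq (GRCh38.p14), and the search covered both strands of windows from 250 bases before to 50 after annotated gene starts, 14875 windows of 10177 tested genes, among them 35 windows of 23 called genes. TGANTCA, a loose form of the AP-1 motif that allows any base (N) in the middle, was in 5.28% of all windows. Among the 35 windows of called genes it was in 3, of CALD1, F2RL2 and PDE3A. The CALD1 match reads TGATTCA and that of F2RL2 TGAGTCA, so CALD1 holds the loose form only. TGACGTCA, the CRE motif bound by CREB, was in 2.78% of windows and in 1 of the 35 windows of called genes, that of FN1. GGAATG, the core of the TEAD motif, was in 11.6% of windows and in 7 of the 35 windows of called genes. These belong to CALD1, GDF15, KRT8, RNF31 and SLC35A2, since a gene can have several windows. The CArG box of SRF was in 1.08% of windows and in 1 of the 35, that of DSE. These shares describe letters and not bound sites. CALD1, the steadiest called gene after STK11, has several annotated starts, and the 250 bases before 3 of them and before the FN1 start are shown with the motif in capitals (TEAD in the windows at chr7:134779384-134779633 and chr7:134745217-134745466, the latter on the opposite strand, AP-1 at chr7:134711249-134711498, all on the plus strand, and CRE at chr2:215436069-215436318 on the minus strand).
CALD1, TEAD motif starting 194 bases before the start: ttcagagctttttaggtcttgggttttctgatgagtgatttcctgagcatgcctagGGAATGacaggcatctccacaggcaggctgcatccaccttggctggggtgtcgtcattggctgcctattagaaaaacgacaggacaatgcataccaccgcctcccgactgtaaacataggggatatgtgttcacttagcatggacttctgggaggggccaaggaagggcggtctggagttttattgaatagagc
CALD1, AP-1 motif starting 126 bases before the start: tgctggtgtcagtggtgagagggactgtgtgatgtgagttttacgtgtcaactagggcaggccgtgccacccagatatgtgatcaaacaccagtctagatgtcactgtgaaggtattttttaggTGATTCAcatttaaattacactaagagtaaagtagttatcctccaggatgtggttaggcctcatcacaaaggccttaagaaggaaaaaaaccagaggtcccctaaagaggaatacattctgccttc
CALD1, TEAD motif starting 42 bases before the start: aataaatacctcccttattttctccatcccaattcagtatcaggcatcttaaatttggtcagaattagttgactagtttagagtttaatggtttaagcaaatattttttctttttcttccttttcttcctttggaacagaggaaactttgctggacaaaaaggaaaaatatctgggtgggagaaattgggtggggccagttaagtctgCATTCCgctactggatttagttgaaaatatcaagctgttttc
FN1, CRE motif starting 183 bases before the start: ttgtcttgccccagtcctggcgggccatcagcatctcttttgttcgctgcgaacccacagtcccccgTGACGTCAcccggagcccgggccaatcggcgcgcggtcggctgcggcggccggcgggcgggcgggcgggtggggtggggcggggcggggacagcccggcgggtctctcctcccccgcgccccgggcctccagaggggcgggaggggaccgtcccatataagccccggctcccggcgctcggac

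The 6 AA libraries gave a second reading of the called genes, from libraries that the baseline comparison did not use, although all 12 share 1 estimate of the spread. Under AA the genotypes differed at 59.0% of tested genes, 30.3% lower and 28.7% higher in deficient cells, so a call there is common. Of the 35 genes, 22 were called in the same direction under AA, 17 lower and 5 higher, 4 were called in the opposite direction and 9 were not called. In 15 of the 22 the change was larger under AA. The genotype change itself differed between PBS and AA in 25 of the 35, against 44.6% of all tested genes. These genes were chosen for their change under PBS, which enters this difference, so the count is a description. STK11 stood at 26.1 ± 2.0 CPM in intact and 6.64 ± 0.910 CPM in deficient cells under AA (SD, n = 3), a log2 change of -1.98 (edgeR adjusted p = 5.29e-13), and its change did not differ between treatments by the test (adjusted p = 0.623).

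Matrix and cytoskeleton genes took both courses under AA. CALD1 stood at 149 ± 6.93 and 73.8 ± 4.95 CPM (log2 change -1.01, adjusted p = 6.67e-14), FN1 at 23.6 ± 1.03 and 13.5 ± 0.790 CPM (-0.80, adjusted p = 7.66e-09) and KRT8 at 1947 ± 58.5 and 771 ± 15.2 CPM (-1.34, adjusted p = 5.41e-19) in intact and deficient cells (SD, n = 3; edgeR). These 3 genes and LOXL2 (-0.40) were lower in deficient cells under both treatments. COL5A2 had a similar log2 change under AA, -1.31 (edgeR adjusted p = 5.6e-05), as did IGFBP7, 0.21 (adjusted p = 4.42e-05). IGFBP3, KRT80 and NFATC2 were lower in deficient cells under PBS and higher under AA, with log2 changes under AA of 0.41, 0.41 and 0.35 (edgeR adjusted p = 2.07e-08, 2.43e-10 and 0.0272). LAMA4 was not called under AA (0.23, adjusted p = 0.0623). GDF15 and CYP1B1, higher in deficient cells under PBS, were higher by more under AA, at log2 changes of 1.69 and 1.26.

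**Figure D4:**
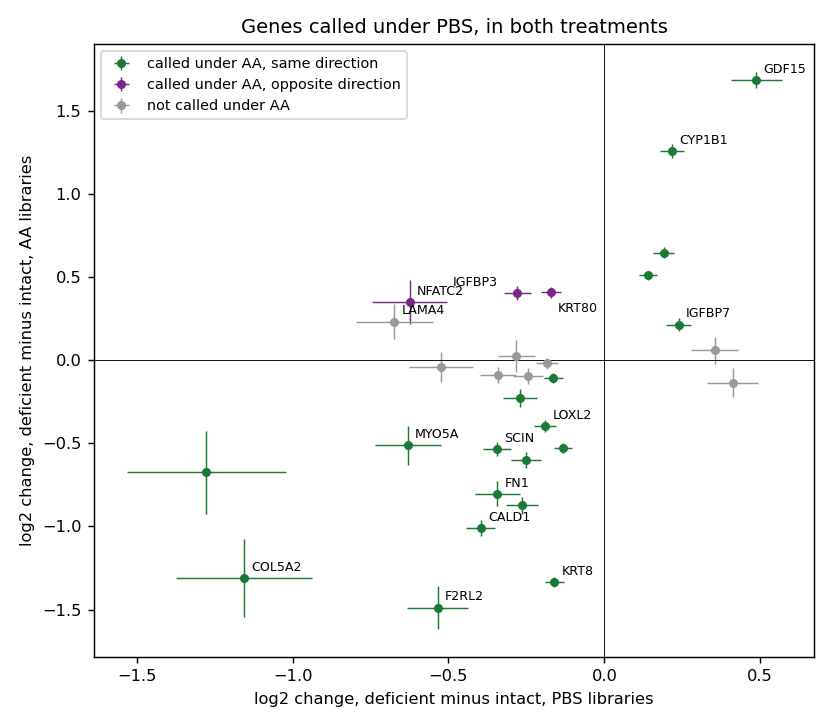
Log2 change between genotypes (deficient minus intact) of called genes under AA against that under PBS, with standard errors as lines and colour by the call under AA; 30 genes are drawn, without ENSG00000267303, LSMEM2, CP and STK11, whose change is larger. CALD1, FN1, KRT8 and COL5A2 lie in the lower left, lower in deficient cells under both treatments, while IGFBP3, KRT80 and NFATC2 lie in the upper left.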

How the data were processed

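Polyadenylated RNA was sequenced on an Illumina instrument. The submitters' processing notes name RSEM, StringTie 1.3.1, HISAT2 2.1.0, Bowtie2 2.2.8 and fastp 0.18.0, without roles. Genome build and strand use were not given in the sources used here. As deposited, 1 file holds estimated counts and another FPKM, each for 20323 genes; 10.9 to 11.5% of a library's estimated counts are not whole.

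Counts were rounded, filtered by group at a minimum count of 10 (12718 genes) and fitted for all 12 libraries with edgeR 4.0.16 (R 4.3.3), a quasi-likelihood model with group as the factor, TMM factors and no block. A Benjamini-Hochberg adjusted p under 0.05 made a call, and the standard error is the log2 change over the square root of F. No library was a copy of another. Gene names came from the table, GENCODE 29 and the name table (20301 identifiers matched). Sequences are from RefSeq. Levels are compared between genes only in FPKM. Alternatives used DESeq2 1.42.0, limma 3.58.1, other scalings, filters and thresholds, the FPKM table, and fits without 1 library. Simulated counts served to test the steps.

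The comparison, its genes and the 40 lists were chosen with earlier results of these data known. Genes named were STK11, the 15 largest rises and 15 largest falls among calls that had a symbol, no overlap and a mean log2 CPM of 2 or more, members of the LKB1, matrix and cytoskeleton lists, and leading members of other lists. The 8 called genes outside this rule are CP, EFNA1, HERC4, LSMEM2, PAM, PDE3A and the 2 identifiers without a symbol. Not every gene and list covered by this rule is reported here.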

Additional observations from a re-analysis of the deposited data

Results flagged for a closer look

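For 25 of the 35 called genes the difference between genotypes itself differed between PBS and AA (edgeR quasi-likelihood test of the difference, adjusted p under 0.05), against 44.6% of all tested genes. Since the genes were chosen for their change under PBS, which enters this difference, the count is a description, and 24 of the genes are given here. Values are the log2 change between genotypes (deficient minus intact) under PBS minus that under AA.

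Among matrix and cytoskeleton genes the difference was -0.91 for LAMA4, -0.69 for IGFBP3 and -0.58 for KRT80, whose change was more negative under PBS than under AA. It was 1.18 for KRT8, 0.61 for CALD1, 0.46 for FN1 and 0.21 for LOXL2, which were lower in deficient cells under both treatments and by more under AA. SCIN, the actin-severing protein, had 0.19.

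Among genes higher in deficient cells under PBS, GDF15 had -1.20, CYP1B1 -1.04, ANXA3 -0.46 and HKDC1 -0.37, with the larger rise under AA, while DSE had 0.54 and PDZD2 0.29 and neither was called under AA. Of the other lower genes, NFATC2 had -0.98, RNF31 -0.49, ZNF469 -0.31, PEG10 -0.25 and PDE3A -0.17. F2RL2 had 0.95, ARID5B 0.61, PAM 0.39 and SLC35A2 0.35. For ENSG00000267303 the fitted value of -9.53 rests on libraries at 0 counts and is no fold.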

How the results depend on the processing

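STK11 kept its call and direction under every alternative run, with log2 changes from -1.78 (FPKM, pseudocount 1) to -2.18 (pseudocount 0.1), and from -1.97 to -2.18 when 1 library was left out. The count of called genes, 35, was 54 with DESeq2 (12 higher), 111 without the low-count filter (34 higher, 77 lower, 25 of at least 1 log2; 16811 genes tested), 5 with limma on log2 FPKM at either pseudocount (2 higher, 3 lower, 2 of at least 1 log2) and 5 at an adjusted p under 0.01 (0 higher in edgeR and 5 lower, 2 of at least 1 log2; at an unadjusted p under 0.05 edgeR had 484 higher). Leaving out 1 library, which leaves a group with 2, gave 6 to 28 called genes, 0 to 5 higher, 6 to 23 lower and 2 to 4 of at least 1 log2. Other scalings, limma-voom and a minimum count of 50 gave 34 to 45. The 6 PBS libraries alone gave 35, of which 25 were among the same 35 genes.

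The replicate numbers of the titles did not pair the libraries: deviations of libraries with the same number correlated at -0.04, -0.05 and -0.04 over genes. With the replicate block 32 genes were called, 29 of them shared, and 37 in a fit of the 6 PBS libraries with the replicate block, chosen after seeing the data.

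Over all alternatives, 655 values of called genes kept their sign, and 259 of them missed the threshold. Of 855 values of named genes that were not called, 18 were called, 7 of them of PLEC, and 35 had the opposite sign. Among 760 list medians 75 moved by more than the spread (SD) between libraries. The median of all genes shifted by less than 0.1 log2 under every scaling. The cause of these changes was not tested, other than that fewer libraries or a stricter threshold were used by construction. At this depth and with 3 libraries a group, the smallest change called was 0.134 log2, and the median standard error was 0.0712.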

Other observations

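Among tested genes with a mean log2 CPM of at least 2, 3 that were not called also changed by at least 1 log2 in the estimate, each with libraries that spread widely. KRT5, a keratin of basal epithelia that is close in sequence to other type II keratins, stood at 29.6 ± 12.7 CPM in intact and 14.8 ± 12.8 CPM in deficient cells (SD, n = 3; edgeR adjusted p = 0.503). RGPD5, a member of a family of near-identical copies, stood at 2.60 ± 2.76 and 18.1 ± 11.1 CPM (edgeR adjusted p = 0.185). ENSG00000167774, without a symbol of its own in the tables, stood at 8.30 ± 3.06 and 4.06 ± 1.98 CPM (edgeR adjusted p = 0.121). All 3 were chosen after their values were seen, and KRT5 and RGPD5 are uncertain as members of families of similar genes.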
